A study of Mus musculus with 10 samples.

Results

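Cultured Cd163-/- mouse macrophages were set beside whole hearts of Cd163-/- mice that had received saline, 2 libraries against 3, which are 5 of the 10 libraries of the study. The libraries were taken by their labels and their gene counts joined by gene identifier, with all 55357 identifiers present in both tables. CD163 is the macrophage scavenger receptor for haptoglobin-haemoglobin complexes, and its gene is given as deleted in both groups. The macrophages were peritoneal cells elicited over 3 days by thioglycolate, which irritates the cavity and draws in monocytes. They were selected only by adherence to plastic and kept for 48 h in 100 nM dexamethasone, a synthetic glucocorticoid. The hearts came from male mice on a C57BL/6 background. Surgery at an age of 8 weeks to narrow the aortic arch (transverse aortic constriction) stands in the protocol text, but the labels of the single saline hearts do not state it. The other 5 libraries, wild-type macrophages (n = 2) under the same dexamethasone and Cd163-/- hearts given interleukin-10 (IL-10, n = 3), serve below as a second pair of groups that shares no library with the first.

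A macrophage engulfs particles and lipoproteins, breaks them down in lysosomes, and senses microbes and immune complexes through Toll-like and Fc receptors. The heart is a mixed tissue whose RNA comes from cardiomyocytes, fibroblasts, vessel cells and resident macrophages. Cardiomyocytes contract through sarcomeres, release and recapture calcium with every beat, and burn fatty acids in densely packed mitochondria. Tissue, culture and drug exposure differ together between the groups and cannot be told apart, so the values below are levels and ranks of 2 kinds of sample and not effects of a treatment. Nothing in the labels says whether replicates came from separate animals or cultures, and p-values then measure only the spread between these libraries, which may be technical.

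CPM below means counts for each M (mega) of a library's counts once the mitochondrially encoded genes are left out, and values follow the order macrophages 1 and 2, then hearts 1, 2 and 3. These genes held 2.68% and 2.94% of the counts in the macrophages but 38.3%, 36.0% and 34.3% in the hearts. Total counts were 18.6 and 17.2 M in the macrophages and 13.5, 13.7 and 14.9 M in the hearts, of which 18.12, 16.71, 8.32, 8.75 and 9.81 M lay outside the mitochondrial genome. Replicates lay close together: among genes averaging 10 CPM or more, 99 of 8987 differed by over 2-fold between the macrophage libraries and 136 of 9381 among the hearts. Coordinates are those of GRCm38 in the GENCODE annotation, because the labels list both GRCm39 and mm10 for the counts. A log2 difference is positive where the macrophages were higher, and SE is its standard error.

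Cd163 (ENSMUSG00000008845, chromosome 6, 124304656 to 124330527), the targeted gene, had 9 and 14 counts in the macrophages and 45, 47 and 57 in the hearts, or 0.497 and 0.838 against 5.41, 5.37 and 5.81 CPM. Every heart lay above both macrophage libraries, with a log2 difference of -3.04 (SE 0.37, adjusted p = 1.83e-05, edgeR's quasi-likelihood test). Since the extent of the deletion is not in the labels, the reads were not placed inside or outside it.

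Most genes differed between the cells and the tissue. Of 14554 tested genes, 10752 were called at an adjusted p under 0.05 (73.9%), 5437 of them higher in the macrophages (37.4%) and 5315 higher in the hearts (36.5%), with a median log2 difference of 0.02 over all tested genes. Genes called and at least 4-fold apart are named macrophage-rich or heart-rich below: 1496 were macrophage-rich (10.3%) and 2521 heart-rich (17.3%), and 6735 were called at under 4-fold. Counts of list members below are to be read beside these shares of all tested genes. For 12063 genes (82.9%) the libraries of the groups did not overlap, among them all 1496 macrophage-rich and 2509 of the 2521 heart-rich genes. Non-overlap of a gene in either class therefore adds little to its class. The macrophage-rich genes supplied 35.8% and 38.3% of all non-mitochondrial counts in the macrophages and 3.43%, 2.90% and 3.64% in the hearts. The heart-rich genes supplied 40.5%, 43.8% and 41.1% in the hearts and 2.37% and 2.11% in the macrophages. In whole tissue, fewer cells of a type and less RNA per cell cannot be told apart. With mitochondrial genes left in the library sizes, the median over all genes moved to 0.65 and the split of calls to 8060 higher in macrophages against 3674 higher in hearts (68.7% against 50.6% higher in macrophages), and every difference below is relative to the scaling without them.

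A large group of genes was used at a similar level by both. Of 7890 genes averaging 10 CPM or more in each group, 4030 stayed within a 2-fold range over all 5 libraries, a rule of size and not a test, and are said to lie at a like level. They supplied 30.5% and 29.4% of the counts in the macrophages and 29.9%, 28.4% and 29.1% in the hearts. Among them, 2056 still passed the test.

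**Figure D1:**
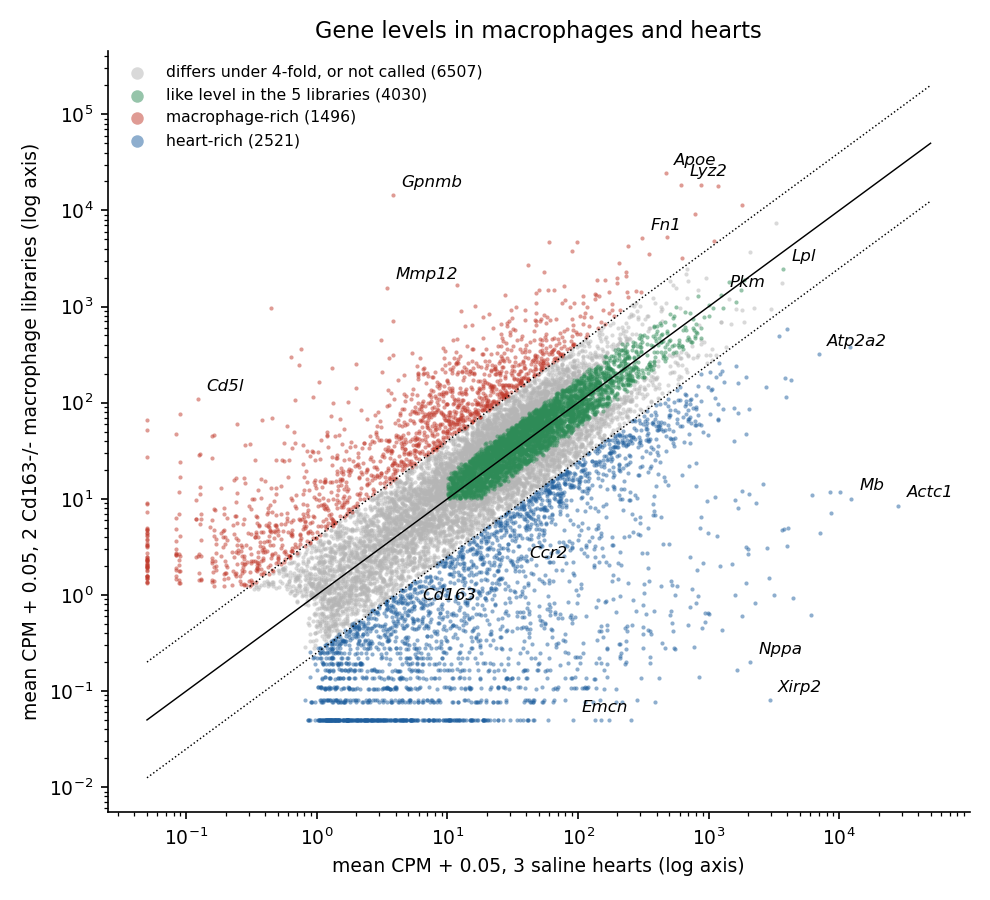
Mean CPM of each tested gene in Cd163-/- macrophages (n = 2) against saline hearts (n = 3), both axes logarithmic after adding 0.05 CPM, coloured by class. The 1496 macrophage-rich and 2521 heart-rich genes lie on either side of a dense band that holds the 4030 genes at a like level.

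The most abundant transcripts of the macrophages included lysosomal enzymes, an apolipoprotein and both ferritin chains. By level per exon length, Lyz2, the macrophage lysozyme (ENSMUSG00000069516, chromosome 10, 117277331 to 117282321), came first at 48277 per M against 1367 in the hearts, where it ranked 82. Apoe, the apolipoprotein that carries cholesterol out of cells, came second at 38991, and Psap, the precursor of the saposins that activate lysosomal lipid hydrolases, was next at 22874. Then came the lysosomal proteases Ctsd and Ctss, the ferritin heavy chain Fth1, the protease Ctsb, the elongation factor Eef1a1, the ferritin light chain Ftl1 and the class I light chain B2m. All 10 were called higher in the macrophages, but Eef1a1 (log2 1.16) and B2m (log2 1.69) by under 4-fold. In CPM, Lyz2 was at 18639 and 18349 CPM in the macrophages and 676, 413 and 744 in the hearts, with a log2 difference of 4.92 (SE 0.28, adjusted p = 2.60e-08). No heart came near either macrophage library, and heart 2 was the lowest.

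The most abundant heart transcripts included actins, myoglobin and a natriuretic peptide. Per exon length, the cardiac actin gene Actc1 (ENSMUSG00000068614, chromosome 2, 114047282 to 114053548) ranked first at 51447 per M and stood at 17.97 in the macrophages, rank 6622. Mb, the oxygen-binding myoglobin, ranked second at 24135, followed by the ventricular light chain Myl2, the fatty acid-binding protein Fabp3 and the skeletal actin Acta1. Among the other genes at the top were Tnnc1, the calcium-binding troponin, Cox6a2, the muscle form of a cytochrome oxidase subunit, Ankrd1, a stretch-responsive sarcomere protein, and Nppb, the B-type natriuretic peptide. Their macrophage CPM were between 0.539 for Acta1 and 13.3 for Ankrd1, whereas Cryab, the small heat-shock protein at rank 11, was at 227 and 133 CPM in the macrophages and 3421, 3445 and 4728 in the hearts. Cryab had the highest macrophage level of these genes.

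All 20 genes of the macrophage identity list, which holds lineage markers such as receptors and adaptors, were called higher in the macrophages, and 19 were macrophage-rich (10.3% of all tested genes were). Their median log2 difference was 4.17, against 0.02 over all genes. Adgre1, the F4/80 surface protein, was at 715 and 645 CPM in the macrophages and 57.8, 39.8 and 73.7 in the hearts, and Csf1r, the receptor of the macrophage growth factor, at 946 and 1017 CPM against 119.5, 84.8 and 144. Mpeg1, the pore-forming perforin-2, gave the largest difference of the list at 4279 and 5070.03 CPM against 72.4, 33.7 and 73.1 (log2 6.29, SE 0.32, adjusted p = 1.19e-08). Among the genes with the largest values, Cd68, a lysosomal glycoprotein, was at 1959.8 and 2590.3 CPM in the macrophages and 55.5, 38.5 and 70.9 in the hearts and Itgb2, the beta-2 integrin, at 895 and 943 CPM against 36.8, 19.9 and 34.96. The groups did not overlap for these genes, as was so for 82.9% of all tested genes. The hearts held a median of 5.56% of the macrophage level over the 20 genes, from 1.28% to 30.7%. All 20 genes were lowest in heart 2, with summed levels of 1617, 954 and 1731 CPM in hearts 1 to 3 and 38655 and 39927 CPM in the macrophages, and without heart 2 the macrophage-rich count was 17. All 18 Fc receptor and adaptor genes, which summed to 591, 382 and 598 CPM in hearts 1 to 3, and all 10 class II genes were also lowest in heart 2.

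**Figure D2:**
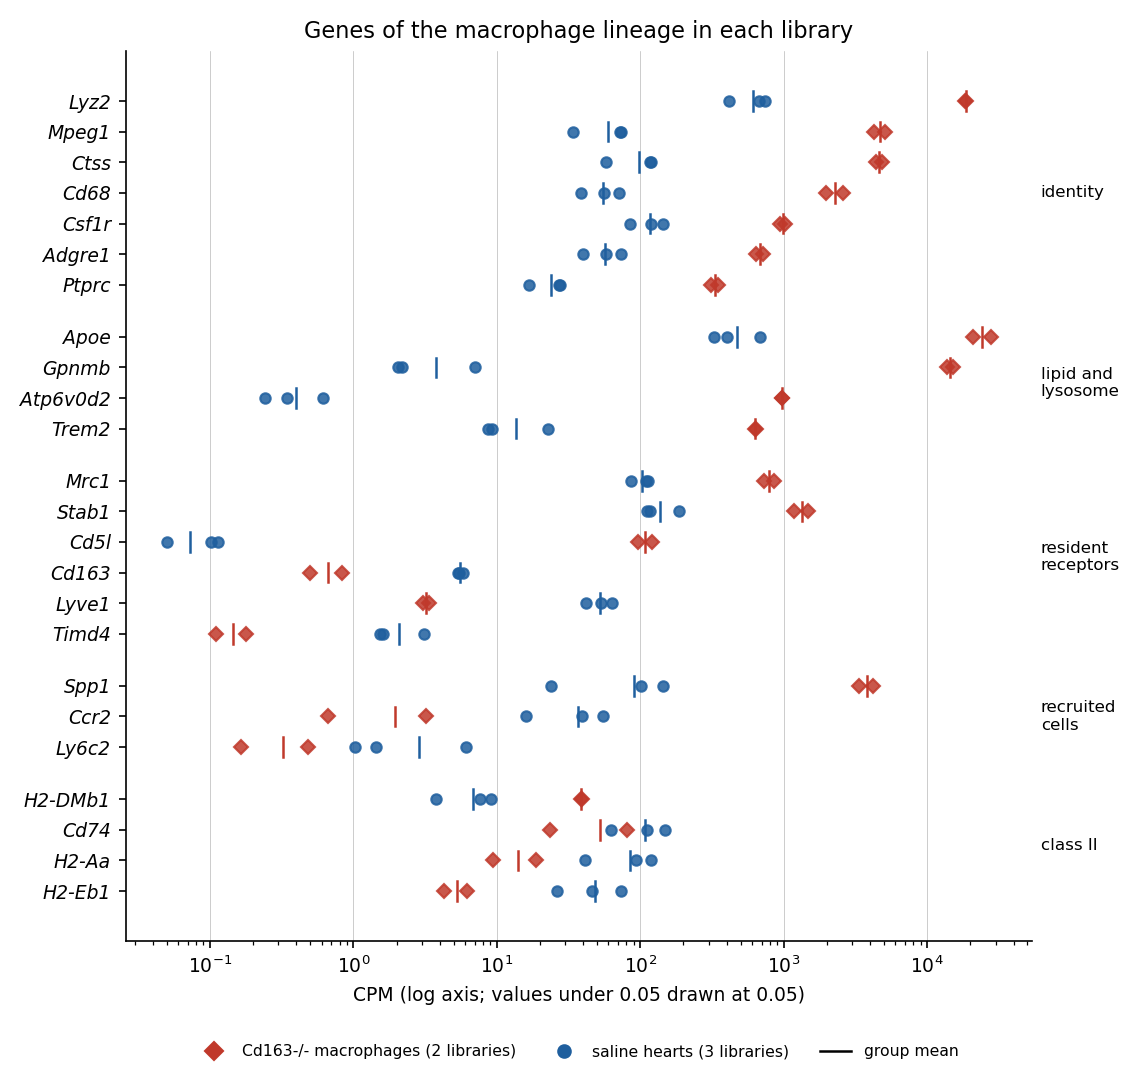
CPM per library on a logarithmic axis for genes of the macrophage lists, with Cd163-/- macrophages (n = 2) and saline hearts (n = 3) as separate points. Lyz2 stands at 18639 and 18349 CPM in the macrophages and 676, 413 and 744 in the hearts, while Ccr2, Lyve1 and Cd163 have the hearts on the right.

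The genes with the largest differences toward the macrophages had low levels in the hearts. Gpnmb, a lysosome-associated glycoprotein of lipid-loaded macrophages (ENSMUSG00000029816, chromosome 6, 49036546 to 49070929), was at 15016 and 13645 CPM in the macrophages and 2.16, 2.06 and 7.03 in the hearts. Both macrophage libraries were over 1000 times above each heart, with a log2 difference of 11.86 (SE 0.47, adjusted p = 1.74e-09), or 12.72 without heart 3. Atp6v0d2, a subunit of the lysosomal proton pump, was at 969 and 969 CPM against 0.24, 0.343 and 0.611 (log2 11.18, SE 0.23, adjusted p = 1.64e-10). Cd5l, a secreted macrophage protein of the scavenger receptor family, was at 119.9 and 96.9 CPM in the macrophages and had 2 counts in all hearts together, a ratio of 1463 with a 95% counting interval of 405 to 12083. The receptor gene Il7r, for interleukin-7, was at 344 and 372 CPM against 0.721, 0.8 and 0.611. Mmp12, the macrophage elastase, was at 1625 and 1520.3 CPM in the macrophages and 3.73, 1.83 and 4.59 in the hearts, and Adam8, a membrane metalloprotease, at 1729.6 and 1613 CPM against 16.5, 6.86 and 11.9. Others among the 12 with the largest differences were Rgs1, Upk1b, Cemip, Cd300lf and Clec4d, with log2 differences up to 8.94 for Rgs1. Some of these values moved by over 1.5 times when 1 library was left out. Rgs1 was at 9.68 without heart 3, Upk1b at 9.27 without heart 1, and Cemip at 9.32 without heart 3 but 6.54 without macrophage library 1.

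Lysosomal genes were higher in the macrophages as a group. All 25 proteases, hydrolases and proton pump subunits of the lysosome list were called higher there (37.4% of all tested genes were). Of them 17 were macrophage-rich (10.3% of all tested genes were), and the list's median log2 difference was 2.83. Ctsb was at 17024 and 19143 CPM in the macrophages and 1096, 1065 and 1399.7 in the hearts and Ctsd at 10769 and 7709 CPM against 683, 783 and 888. Ctss, which trims the invariant chain of class II molecules, differed most among the highest 4 (log2 5.57, SE 0.30, adjusted p = 1.64e-08) at 4873 and 4425 CPM against 118, 57.7 and 117. The libraries of the groups did not overlap for these 3 genes, as for every macrophage-rich gene.

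Most genes of lipid handling were macrophage-rich, while Lpl and Cd36 were high in both groups. Of 17 tested members, 13 were macrophage-rich and 1 heart-rich, with a median of 4.53. Apoe was at 20827 and 27661 CPM in the macrophages and 404, 329 and 678 in the hearts (log2 5.69, SE 0.34, adjusted p = 3.77e-08). Trem2, the lipid-sensing receptor of foamy macrophages, was at 638 and 626 CPM against 9.26, 8.69 and 22.6, and its log2 difference of 5.53 became 6.14 without heart 3. Lgals3, the galactoside-binding galectin-3, was at 2695 and 2771 CPM against 40.2, 25.3 and 59.01 and Fabp5, the macrophage fatty acid-binding protein, at 1031 and 1158 CPM in the macrophages and 53.1, 52.5 and 36.9 in the hearts. By contrast Lpl, the lipase that frees fatty acids from lipoproteins, was at 2335 and 2598 CPM against 3674, 4385 and 3119 and lay at a like level, and Cd36, the fatty acid and lipoprotein receptor, was at 3583 and 3799.7 CPM against 2160.2, 2302 and 1721 (log2 0.84, SE 0.18). The adipocyte and endothelial form Fabp4 was at 286 and 301 CPM in the macrophages and 674, 644 and 476 in the hearts, higher in the hearts by under 4-fold. The heart-rich member was Ch25h, the enzyme of 25-hydroxycholesterol, at 1.27 and 0.539 CPM against 11.7, 6.63 and 7.03 (log2 -3.19), which was -3.94 without macrophage library 1.

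Genes of Fc receptors, Toll-like receptors, the NADPH oxidase and the inflammasome lay mostly on the macrophage side, while complement genes were divided. All 18 Fc receptor and adaptor genes were macrophage-rich, with a median log2 difference of 3.62, among them Fcgr3, an activating IgG receptor, at 1059 and 1137 CPM in the macrophages and 84.4, 51.2 and 89.6 in the hearts and Tyrobp, the adaptor DAP12, at 618 and 555 CPM against 33.4, 19.4 and 42.1. Of 16 Toll-like receptor and partner genes, 15 were called higher in the macrophages and 9 were macrophage-rich (37.4% and 10.3% of all tested genes). Tlr13 was at 807 and 849.98 CPM against 26.4, 13.4 and 22.7 and Tlr7 at 322 and 358 CPM in the macrophages and 13.6, 9.37 and 11.9 in the hearts. The NADPH oxidase, which makes superoxide, had 7 of 8 members macrophage-rich, led by its catalytic subunit Cybb at 1216 and 1401 CPM against 28.1, 22.1 and 32.4 (log2 5.57, SE 0.19, adjusted p = 6.03e-10). The eighth, Nox4, an oxidase of non-immune cells, was heart-rich at 1.49 and 1.08 CPM against 5.77, 4.34 and 6.73; the call at 4-fold was lost without macrophage library 2 and without heart 3. Of 14 inflammasome genes, 11 were macrophage-rich and 1, Il1b, the cytokine interleukin-1 beta, heart-rich at 0.552 and 0.239 CPM in the macrophages and 5.41, 1.83 and 3.36 in the hearts (log2 -3.11, and -3.82 without macrophage library 1). Of 19 tested complement genes, 8 were macrophage-rich (10.3% of all tested genes were) and 3 heart-rich, a share near the 17.3% of all tested genes. The C1q chain genes C1qa, C1qb and C1qc were macrophage-rich, C1qb at 1927 and 2065 CPM against 191, 148 and 256. Serping1, the C1 inhibitor, was heart-rich at 72.7 and 41.5 CPM against 427, 402 and 431.

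The myeloid transcription factors lay on the same side with smaller differences. Of 17 tested, 10 were macrophage-rich and none heart-rich, with a median of 2.30. Maf, a factor of mature macrophages, was at 533 and 610.2 CPM in the macrophages and 35.5, 27.1 and 35.4 in the hearts (log2 4.13, SE 0.16), and Spi1, which encodes the lineage factor PU.1, at 233 and 231 CPM against 26.1, 11.5 and 21.5. Zeb2, a repressor that keeps macrophage identity, was at 387 and 490.4 CPM against 102, 83.6 and 81.4. These 3 had no overlap between the groups, as was so for 82.9% of all tested genes.

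Of 17 tested resident-macrophage receptor genes, 9 were macrophage-rich (10.3% of all tested genes were) and 3 heart-rich, a share near the 17.3% of all tested genes. The scavenger and lectin receptors Stab1, at 1175 and 1485 CPM in the macrophages and 116, 111 and 187 in the hearts, and Mrc1, the mannose receptor, at 855 and 729 CPM against 114, 85.8 and 110.1, were macrophage-rich, as was the growth factor Igf1 at 541 and 581 CPM against 85.1, 70.9 and 77.5. Heart-rich were Cd163 itself, Lyve1, a hyaluronan receptor of resident cardiac macrophages and of lymphatic vessels, at 3.04 and 3.35 CPM in the macrophages and 63.4, 52.9 and 41.8 in the hearts (log2 -4.04, SE 0.22, adjusted p = 1.89e-08), and Timd4, the phosphatidylserine receptor TIM-4, at 0.11 and 0.18 CPM against 3.13, 1.6004 and 1.53. Both macrophage libraries lay under every heart for these 3 genes. Of the lymphatic vessel list, which also holds Lyve1, 5 of 7 members were heart-rich, and the part of lymphatic vessels in the Lyve1 level was not tested.

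Monocyte genes were also divided, with a heart-rich share again near that of all tested genes. Spp1, the secreted phosphoprotein osteopontin, was at 4180.04 and 3371 CPM in the macrophages and 101, 23.7 and 144 in the hearts, Fn1, fibronectin, at 5236 and 5129 CPM against 306, 184 and 439 and Thbs1, thrombospondin-1, at 1174 and 1414 CPM against 167, 105 and 165, each macrophage-rich. Ccr2, the chemokine receptor of recruited monocytes, was heart-rich at 0.662 and 3.23 CPM in the macrophages and 54.6, 15.9 and 39.1 in the hearts (log2 -4.25, SE 0.59, adjusted p = 5.20e-05). Heart 2 was the lowest heart and macrophage library 2 the higher of its pair, and the difference was -3.49 without macrophage library 1 and -5.76 without library 2. Vcan, the proteoglycan versican, was also heart-rich at 24.3 and 35.2 CPM against 204, 183 and 133. In all, 8 of 16 tested members were macrophage-rich and 3 heart-rich. The remaining heart-rich member, Ly6c2, a monocyte surface antigen, was at 0.166 and 0.479 CPM against 6.13, 1.03 and 1.43, whose log2 difference of -3.11 was -1.93 without heart 1 and -4.00 without macrophage library 2.

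Class II antigen presentation was low in the macrophages. The genes of the class II chains, their loading factors and their activator summed to 112 and 192 CPM in the macrophages and 304, 159.8 and 426 in the hearts, with heart 2 below macrophage library 2. Of 9 tested, 4 were heart-rich and 1 macrophage-rich; with mitochondrial genes left in, these counts were 1 and 2. H2-Aa, the alpha chain of I-A, was at 9.33 and 18.9 CPM in the macrophages and 93.3, 41.2 and 119 in the hearts (log2 -2.59, SE 0.41, adjusted p = 1.39e-04), and -3.18 without macrophage library 2. H2-Eb1, the beta chain of I-E, was at 4.25 and 6.22 CPM against 46.4, 26.1 and 72.97. Cd74, the invariant chain, was at 23.5 and 81.3 CPM against 112, 62.3 and 149 and was not called (log2 -1.04, adjusted p = 0.0501), but passed under TMM, DESeq2 size factors, upper-quartile scaling, limma-voom and no filter, without macrophage library 2 (log2 -2.20) and without heart 2 (log2 -1.32). Without macrophage library 1 it was nearer 0 and not called (log2 -0.41). The loading factor H2-DMb1 went the other way at 38.3 and 38.96 CPM in the macrophages and 7.57, 3.77 and 9.17 in the hearts.

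Chemokine genes did not lie on 1 side. Of 24 tested, 5 were macrophage-rich and 8 heart-rich (10.3% and 17.3% of all tested genes). Their median was -0.08, or 0.53 with mitochondrial genes left in, where 8 were macrophage-rich. Ccl6 was at 1372 and 1622 CPM in the macrophages and 82.1, 36.01 and 57.99 in the hearts and Ccl3, which draws monocytes and neutrophils, at 82.4 and 146 CPM against 1.56, 0.572 and 0.51. Ccl3 had a log2 difference of 7.04 and 7.70 without heart 1. On the heart side, Ccl21a, the lymphatic chemokine, had 4 counts in macrophage library 2, none in library 1 and 80.4, 99.6 and 115 CPM in the hearts. Its fitted log2 difference was -9.62, or -8.61 without library 1 and -13.11 without library 2. Cxcl10, an interferon-induced chemokine, was at 1.49 and 1.38 CPM against 16.5, 11.5 and 12.2 (log2 -3.21, SE 0.28, adjusted p = 9.61e-07). Cxcl12, the stromal chemokine, lay at a like level at 206 and 165 CPM in the macrophages and 185, 219.6 and 188 in the hearts.

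The glucocorticoid list had members in both directions; of the groups, the macrophages alone had been given dexamethasone. Of 26 tested members, 13 were called higher in the macrophages, 7 of them macrophage-rich, and 10 higher in the hearts, 5 of them heart-rich; with mitochondrial genes left in, 11 were macrophage-rich. The heart-side shares were close to those of all tested genes, of which 36.5% were called higher in the hearts and 17.3% were heart-rich. Fkbp5, a co-chaperone of the glucocorticoid receptor, was at 389.6 and 332 CPM in the macrophages and 48.1, 30.7 and 38.6 in the hearts (log2 3.21, SE 0.17, adjusted p = 1.87e-08). Ms4a4a, a membrane protein of macrophages, was at 292 and 368 CPM against 6.37, 4.34 and 5.096. Mrc1 and Thbs1, given above, belong to this list too, and so does Cd163, which was heart-rich.

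Genes of IL-10 signalling were mostly somewhat higher in the macrophages. Of 16 tested, 12 were called higher there (37.4% of all tested genes were), and 4 lay at a like level. At 4-fold or more there were 4 (10.3% of all tested genes), and 8 with mitochondrial genes left in. Il10 itself had 23 and 35 counts in the macrophages and 0, 2 and 1 in the hearts, a ratio of 14.9 with a 95% counting interval of 4.86 to 74.5. Its fitted log2 difference was 3.79, or 4.71 without heart 2. The ligand-binding receptor chain Il10ra was macrophage-rich at 85.4 and 114 CPM in the macrophages and 12.3, 9.72 and 20.99 in the hearts, and the shared chain Il10rb was at 241 and 275 CPM against 91.7, 94.2 and 92.8. The kinase gene Jak1 was at 360.3 and 363 CPM against 188, 179 and 185, and the transcription factor Stat3, on which the receptor acts, lay at a like level at 203 and 209 CPM in the macrophages and 226, 209.99 and 208 in the hearts. Il1rn, the interleukin-1 receptor antagonist, was at 96.03 and 140.3 CPM against 15.3, 4.12 and 4.38 (log2 3.92, and 4.79 without heart 1).

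Iron storage and haem breakdown belonged to the macrophage side. Of 18 tested genes, 10 were macrophage-rich and 1 heart-rich (10.3% and 17.3% of all tested genes). Fth1 was at 10032 and 12893 CPM in the macrophages and 1797, 1719.7 and 1844 in the hearts, Ftl1 at 3597 and 3493 CPM against 301, 269.9 and 472 and Hmox1, the haem oxygenase, at 1039 and 958 CPM against 84.6, 51.7 and 123 (log2 3.53, SE 0.28, adjusted p = 3.83e-07). All 5 libraries held over 1000 CPM of Fth1, the only one of these 3 genes for which the hearts did so.

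In the other direction, sarcomere genes were heart-rich with large differences. All 24 tested members of 25 were called higher in the hearts and 23 were heart-rich (17.3% of all tested genes were), with a median log2 difference of -10.05 and a range of -13.35 to -1.95. The list summed to 102035, 115698 and 111195 CPM in the hearts and to 614 and 501 CPM in the macrophages, where 10 of its genes had a mean under 1 CPM. Actc1 was at 7.395 and 9.52 CPM in the macrophages and 24972, 29126 and 30742 in the hearts (log2 -11.71, SE 0.40, adjusted p = 5.76e-10). Tpm1, the tropomyosin that non-muscle cells also use, was at 427 and 332 CPM against 11948, 11836 and 12422 (log2 -4.99), and Myh6, the alpha myosin heavy chain, at 8.996 and 14.7 CPM against 8956, 12369.5 and 9132. Acta1, skeletal actin, was at 0.607 and 0.539 CPM in the macrophages and 4601, 6378 and 7310.1 in the hearts, and Tnnt2, cardiac troponin T, at 4.03 and 4.73 CPM against 6985, 7053 and 7159. Macrophage library 2 was above library 1 for 18 of the 25 genes; a source of these reads was not tested.

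Some promoters of this heart-rich group shared short elements. In the 250 bases before the RefSeq start (GRCm38.p6), 22 of the 25 sarcomere genes had an entry, and 6 of them (27.3%) held a CArG box, the element of serum response factor, on either strand, against 377 of 27025 promoters (1.40%). CATTCC, the M-CAT element of TEAD factors, was in 8 (36.4%) against 12.6% of all promoters, and the MEF2 box in 3 (13.6%) against 3.00%. A match is a description of the sequence and not a bound site, and the window says nothing of elements elsewhere. Actc1 (chr2:114052876-114053125, minus strand), Acta1 (chr8:123894776-123895025, minus strand) and Myl3 (chr9:110763428-110763677, plus strand), the essential light chain, are printed because each holds a CArG box, in capitals together with CATTCC or its reverse complement GGAATG where present.
Actc1: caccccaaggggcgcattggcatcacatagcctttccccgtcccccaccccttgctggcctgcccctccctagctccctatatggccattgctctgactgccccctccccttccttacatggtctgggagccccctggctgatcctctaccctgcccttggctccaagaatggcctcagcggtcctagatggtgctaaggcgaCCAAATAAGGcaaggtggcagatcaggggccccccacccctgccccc
Acta1: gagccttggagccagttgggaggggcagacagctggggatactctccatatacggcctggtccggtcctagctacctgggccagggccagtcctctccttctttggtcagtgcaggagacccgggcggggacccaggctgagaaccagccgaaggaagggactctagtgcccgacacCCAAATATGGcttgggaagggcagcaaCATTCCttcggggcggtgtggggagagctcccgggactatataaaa
Myl3: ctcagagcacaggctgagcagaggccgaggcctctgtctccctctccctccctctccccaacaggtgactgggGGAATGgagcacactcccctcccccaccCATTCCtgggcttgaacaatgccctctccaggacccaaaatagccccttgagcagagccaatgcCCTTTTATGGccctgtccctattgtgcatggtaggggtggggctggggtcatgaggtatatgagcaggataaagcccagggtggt
The CArG box lies 47 to 38 bases before the start in Actc1, 73 to 64 in Acta1 and 85 to 76 in Myl3. CATTCC lies 46 to 41 bases before the start in Acta1 and 149 to 144 in Myl3, with its reverse complement 177 to 172 bases before the start. Myl3 was at 3.64 and 6.28 CPM in the macrophages and 3842, 4383 and 3907 in the hearts and matched Actc1 and Acta1 in having under 10 CPM in each macrophage library.

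Excitation and calcium cycling genes were likewise heart-rich. Of 19 tested calcium-handling genes, 15 were heart-rich (17.3% of all tested genes were) and 2 macrophage-rich, a share near the 10.3% of all tested genes. Pln, phospholamban, the inhibitor of the calcium pump (ENSMUSG00000038583, chromosome 10, 53337667 to 53345987), had 2 counts in each macrophage library and 1635, 1819 and 1448 CPM in the hearts (log2 -13.67, SE 0.33, adjusted p = 1.64e-10). The release channel gene Ryr2 was at 0.552 and 0.658 CPM in the macrophages and 908, 1049 and 994 in the hearts and the store protein gene Casq2 at 0.386 and 0.718 CPM against 1878, 1863 and 1663. Atp2a2, the calcium pump that most cells use, was at 324 and 320.3 CPM against 6474, 7799.7 and 6522, the highest macrophage value of the heart-rich members named here. Macrophage-rich were Fkbp1b, a release channel partner, at 13.9 and 16.8 CPM in the macrophages and 1.32, 0.686 and 2.04 in the hearts, and Stim1, the store sensor, at 89.9 and 81.1 CPM against 21.4, 20.005 and 21.3, whose 4-fold call was lost under TMM, DESeq2 and upper-quartile scaling and without macrophage library 1. Of 20 channel and junction genes, 19 were heart-rich, among them the desmosome gene Pkp2 at 4.47 and 4.55 CPM against 273, 263 and 259.

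Natriuretic peptide and stress genes were low or absent in the macrophages. All 17 tested members of 18 were heart-rich, with a median of -8.90. Nppa, the atrial natriuretic peptide (ENSMUSG00000041616, chromosome 4, 148000722 to 148002079), had 5 counts in macrophage library 2, none in library 1 and 1438, 2527 and 2231 CPM in the hearts (log2 -13.71, SE 0.55, and -12.70 without library 1 and -17.50 without library 2). Nppb was at 0.717 and 0.838 CPM in the macrophages and 1986, 2017 and 2831 in the hearts (log2 -11.50, SE 0.34, adjusted p = 2.53e-10). Nmrk2, a kinase that salvages nicotinamide riboside, had 0 counts in the macrophages and 132, 186 and 203 CPM in the hearts, which was at least 2015-fold higher against a floor of 3 counts over both macrophage libraries. By the same floor, Cilp, a cartilage matrix protein made by cardiac fibroblasts, was at least 2973-fold higher at 199, 252 and 317 CPM, Klhl31, a muscle kelch protein, at least 1742-fold and Homer2, a scaffold protein, at least 1568-fold. Xirp2, an actin-binding protein of intercalated discs, had 1 macrophage count against 2837, 1950.03 and 4007 CPM in the hearts, a ratio of 103629 with a counting interval of 18599 to 4093180. The fitted log2 difference of Xirp2, -16.20, was -15.33 without macrophage library 1 and -18.01 without library 2. In all, 312 heart-rich genes had no count in either macrophage library and 51 macrophage-rich genes none in any heart.

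Cardiac transcription factors were also mostly heart-rich, at lower levels. Of 16 tested, 10 were heart-rich and 3 lay at a like level. Gata4, an early cardiac factor, was at 3.04 and 3.35 CPM in the macrophages and 124, 137 and 145 in the hearts (log2 -5.40, SE 0.16, adjusted p = 2.55e-10), and Tbx20 at 1.82 and 2.21 CPM against 218, 219 and 208. Prox1, a factor of cardiomyocytes and of lymphatic vessels, was at 0.276 and 0.598 CPM against 55.5, 56.8 and 44.4, with -7.51 in place of a log2 difference of -6.89 without macrophage library 2. Mef2a, which acts in many cell types, lay at a like level at 287 and 273 CPM in the macrophages and 190.1, 197 and 174 in the hearts.

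Mitochondrial energy genes encoded in the nucleus formed a uniform heart-rich group, although every member was present in the macrophages. All 47 oxidative phosphorylation genes were called higher in the hearts, 44 of them heart-rich (36.5% and 17.3% of all tested genes). Their median was -3.03, with a narrow range of -4.18 to -1.81. The macrophages held a median of 12.3% of the heart level, from 5.52% to 28.4%. Cycs, cytochrome c, was at 61.9 and 68.9 CPM in the macrophages and 1246, 1267 and 1045 in the hearts (log2 -4.18, SE 0.18, adjusted p = 3.73e-09), and Uqcrc2, a complex III subunit, at 97.8 and 93.8 CPM against 1270.4, 1248 and 1046. All 22 genes of the tricarboxylic acid cycle were also higher in the hearts, 21 of them heart-rich, with a median of -2.98: Mdh1, a malate dehydrogenase, was at 156 and 132 CPM against 2735, 2937 and 2507. Of 29 fatty acid oxidation genes, 22 were heart-rich, with Fabp3 at 4.91 and 4.49 CPM in the macrophages and 3415, 4263 and 3187 in the hearts and Hadhb, a subunit of the trifunctional protein, at 70.4 and 63.6 CPM against 1234, 1266 and 1050.3. Slc27a6 was the macrophage-rich member at 1.88 and 2.81 CPM against 0.721, 0.686 and 0.306, a call lost without macrophage library 2, without heart 3 and under DESeq2 size factors, upper-quartile scaling, limma-voom and the replicate block.

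**Figure D3:**
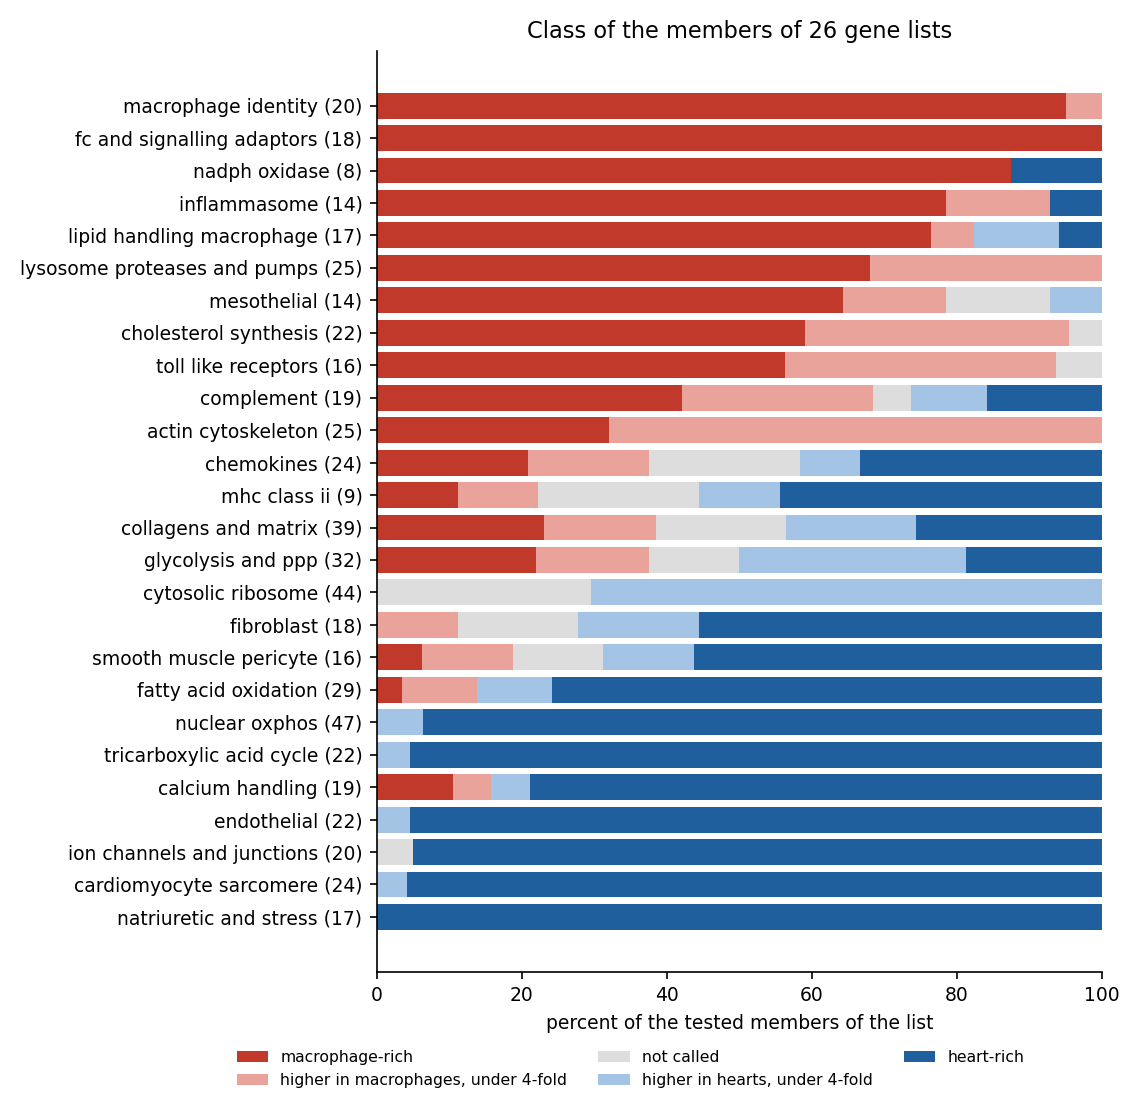
Percent of the tested members of each gene list that were macrophage-rich, called at under 4-fold, not called or heart-rich, as stacked bars that fill 0 to 100%. The sarcomere, natriuretic and endothelial lists are filled or almost filled by heart-rich genes and the Fc receptor and identity lists by macrophage-rich genes, while matrix and glycolysis lists hold every class.

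Many steps of contraction and metabolism exist in a muscle form and a form of other cells, and 31 such pairs were compared by level per exon length. The muscle form was heart-rich in 29 pairs, whereas the other form was macrophage-rich in 6, heart-rich in 1 and called at under 4-fold or not called in 22. The share of the muscle form did not overlap between the groups in 29 pairs; it exceeded 50% in the hearts in 24 pairs and in the macrophages in 4. Fabp3 made up 99.6%, 99.7% and 99.7% of Fabp3 plus Fabp5 in the hearts and 2.02% and 1.65% in the macrophages. Pygm, the muscle glycogen phosphorylase, made up 99.4%, 99.5% and 99.2% beside the liver form Pygl in the hearts and 5.19% and 4.39% in the macrophages. Cox6a2 made up 94.3%, 94.9% and 92.5% beside Cox6a1 in the hearts and 1.92% and 2.92% in the macrophages, while Cox6a1 was at 117 and 105 CPM in the macrophages and 135, 119.8 and 137 in the hearts, a like level. The insulin-responsive glucose transporter Slc2a4 made up 83.9%, 90.4% and 80.5% beside Slc2a1 in the hearts and 0.328% and 0.325% in the macrophages.

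Other pairs changed less far. The calcium pump Atp2a2 exceeded Atp2a3 in both, at a mean share of 99.8% in the hearts and 93.9% in the macrophages. The lactate dehydrogenase chain Ldhb made up 68.6% in the hearts and 20.9% in the macrophages, and Ldha was at 713 and 658 CPM in the macrophages and 1179, 1205 and 1338 in the hearts. The ribosomal protein gene Rpl3l, a muscle copy of Rpl3, made up 29.7% in the hearts and 0.0503% in the macrophages. The muscle elongation factor Eef1a2 stood at 22.5% and 0.219%, and without macrophage library 1 its log2 difference moved from -5.88 to -6.53. For Cpt1b, the muscle carnitine palmitoyltransferase, only 41 counts were recorded over 3 hearts and 2 over the macrophages; its annotated span (chromosome 15, 89416405 to 89425863) lies within the overlapping gene model Gm44502, and reads shared by 2 genes may have been left uncounted, so its share is uncertain.

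**Figure D4:**
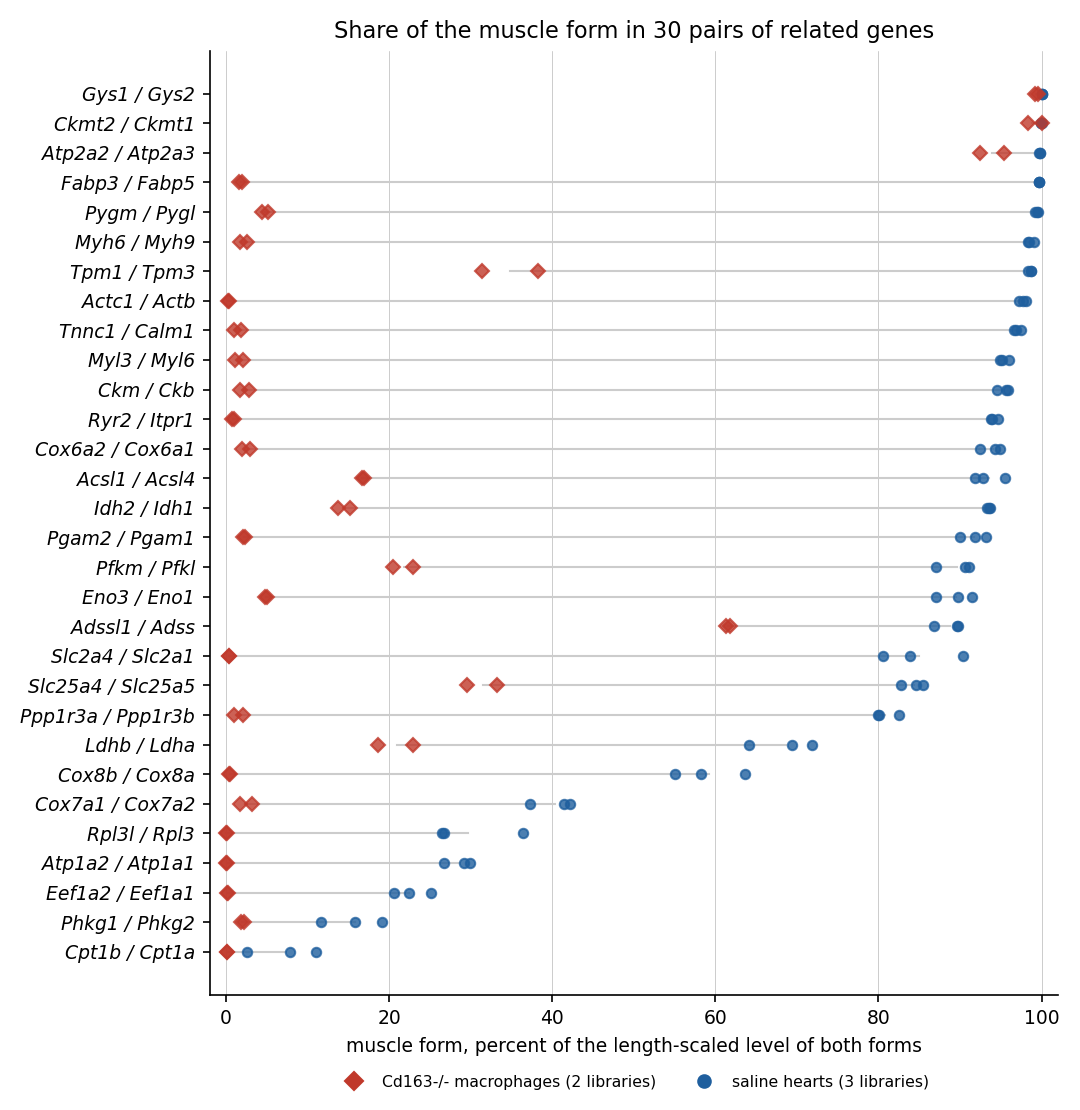
Share in percent of the muscle form in the summed level per exon length of each pair, with points for the 2 macrophage and 3 heart libraries. In 24 pairs the hearts lie above 50%, and in 4 the macrophages do so too; the pair of Ampd1, which had under 3 counts, is not drawn.

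Glycolysis and the pentose phosphate pathway showed no single side. Of 32 genes, 7 were macrophage-rich, 6 heart-rich and 5 at a like level, and the median of -0.65 was -0.04 with mitochondrial genes left in. Over all tested genes, 10.3% were macrophage-rich and 17.3% heart-rich, and the heart-rich share of the list was near the latter. The muscle phosphoglycerate mutase Pgam2 was at 3.53 and 3.11 CPM in the macrophages and 468, 546 and 488 in the hearts (log2 -7.23, SE 0.19), Eno3, the muscle enolase, at 11.3 and 9.64 CPM against 1111, 1185 and 1039 and Aldoa, the muscle aldolase, at 945 and 929 CPM against 2569, 3284 and 3182. Pkm, pyruvate kinase, lay at a like level at 1339 and 1297 CPM in the macrophages and 1249, 1180.4 and 1305 in the hearts. Gapdh was at 136 and 119 CPM against 443, 554 and 483, called higher in the hearts at under 4-fold; it has many processed copies in the genome, and reads shared with them may have been counted elsewhere.

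Vessel genes were mostly heart-rich. All 22 endothelial genes were called higher in the hearts and 21 were heart-rich (36.5% and 17.3% of all tested genes). Their median was -8.12, or -7.48 where members without macrophage counts were set to their bound. In the macrophages 14 of the 22 had a mean under 1 CPM. Pecam1, the CD31 adhesion molecule, was at 0.993 and 1.02 CPM in the macrophages and 318, 338 and 297 in the hearts (log2 -8.29, SE 0.20, adjusted p = 1.64e-10), and the surface antigen gene Ly6c1 at 0.773 and 0.479 CPM against 304, 291 and 238. The list summed to 312 and 226 CPM in the macrophages and 2858, 3038 and 2746 in the hearts. Aqp1, the water channel, and Cav1, the caveolin that many adherent cells make and the member with the highest macrophage level, were at 6.68 and 13.2 CPM against 187, 217 and 251 and 238 and 129.8 CPM in the macrophages and 697, 659 and 497 in the hearts. The pericyte gene Rgs5 had 3 counts in the macrophages and 868, 1007 and 655 CPM in the hearts, a ratio of 9702 with a counting interval of 3319 to 47049.9. Its fitted log2 difference of -13.10 was -12.11 without macrophage library 1 and -16.21 without library 2. Haemoglobin followed the same side, with Hbb-bs at 0.386 and 0.419 CPM against 607, 1147 and 891, a gene near-identical to its neighbour Hbb-bt.

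Extracellular matrix genes were present on both sides. Of 39 members, 9 were macrophage-rich and 10 heart-rich (10.3% and 17.3% of all tested genes). At a like level lay 5, and 7 were not called, with a list median of 0.12. Fn1 was at 5236 and 5129 CPM in the macrophages and 306, 184 and 439 in the hearts (log2 4.06, SE 0.30, adjusted p = 2.60e-07), and the protease inhibitor Timp2 at 1433 and 1367 CPM against 170.00, 155 and 196. Col1a2, a fibrillar collagen chain, was at 1715 and 1432 CPM against 525, 399 and 773 (log2 1.48, SE 0.24, adjusted p = 1.60e-04), higher in both macrophage libraries than in any heart. Col3a1 was at 1606 and 774 CPM in the macrophages and 1491, 1055 and 1724 in the hearts with overlapping groups and no call (log2 -0.26, adjusted p = 0.435), which was -0.88 and called without macrophage library 1 and 0.17 without library 2. Sparc, a collagen-binding protein, lay at a like level at 2312 and 1315 CPM against 1432, 1246 and 1629.6, and was called higher in the macrophages without macrophage library 2 (log2 0.69). Postn, periostin of activated fibroblasts, was heart-rich at 47.6 and 32.6 CPM against 1403, 1522 and 1741 (log2 -5.28, SE 0.24, adjusted p = 4.83e-09), and Bgn, biglycan, was at 863 and 529 CPM in the macrophages and 1713, 1597 and 2237 in the hearts, higher in the hearts by under 4-fold.

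Some markers of other cells were also present in the macrophage libraries. The 19 fibroblast genes summed to 5817 and 4293 CPM in the macrophages and 6226, 5669 and 6691 in the hearts. None of the 18 tested was macrophage-rich and 10 were heart-rich (17.3% of all tested genes were), with a median log2 difference of -2.62. Of these 18, 13 were called higher in the hearts (36.5% of all tested genes) and 2 higher in the macrophages, among them Col1a2, given above. Gene by gene, the macrophages held a median of 13.1% of the heart level, so the sums lay closer than most members did. In the macrophages, 7 of the 19 had a mean under 1 CPM. Dcn, decorin, was at 732 and 583 CPM in the macrophages and 1563, 1577 and 1284 in the hearts. Acta2, the smooth muscle actin, was at 761 and 436 CPM against 189.95, 159.9 and 256, higher in the macrophages by under 4-fold. The mesothelial list, markers of the lining of the peritoneal cavity, summed to 1245 and 1069.8 CPM in the macrophages and 449.6, 330.1 and 338 in the hearts, with 9 of 14 members macrophage-rich and none heart-rich. Upk3b, a mesothelial uroplakin, was at 154 and 119.6 CPM against 7.57, 1.37 and 1.32 (log2 5.36, and 6.66 without heart 1). Both the fibroblast and the mesothelial sums were higher in macrophage library 1 than in library 2, as were Col3a1, Sparc and Acta2. Library 2 was the higher for 4 of the 19 fibroblast and 2 of the 14 mesothelial genes. Such an order was not particular to these lists. Library 2 was the higher for 0 of 44 cytosolic ribosome and 2 of 47 oxidative phosphorylation genes, but for 18 of 25 sarcomere genes. The part of fibroblast and mesothelial cells in the collagen levels of these libraries was not tested.

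**Figure D5:**
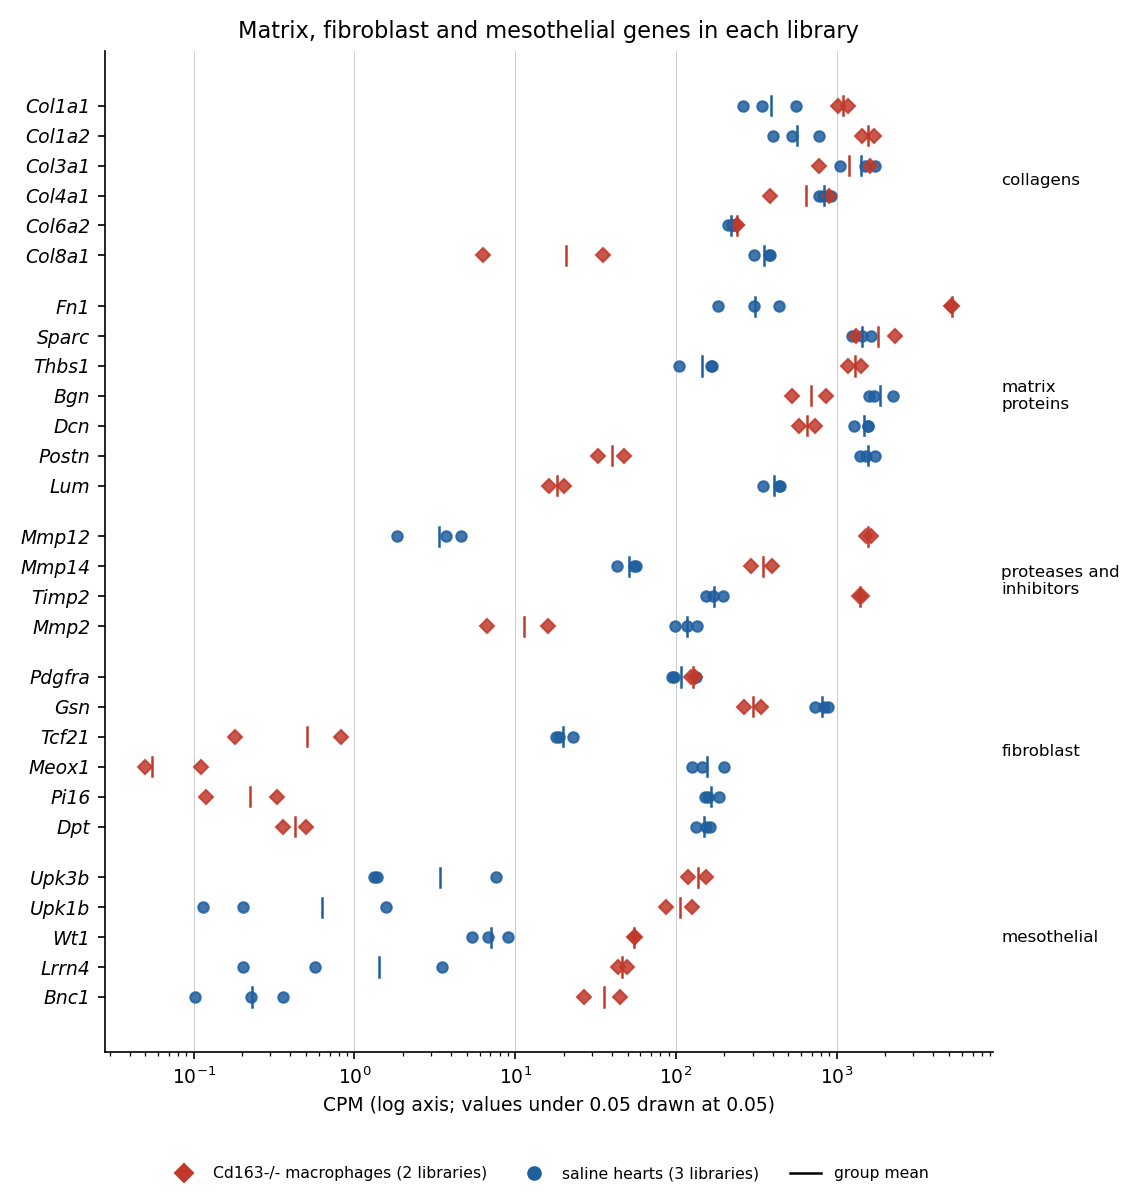
CPM per library on a logarithmic axis for matrix, fibroblast and mesothelial genes, with Cd163-/- macrophages (n = 2) and saline hearts (n = 3) as separate points. Fn1 and Timp2 lie to the right in the macrophages and Postn in the hearts, and the points of Col3a1 and Sparc overlap; genes drawn but not named in the text were chosen after their values were seen.

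The T and NK cell list summed to 2.37 and 7.9001 CPM in the macrophages and 6.01, 5.49 and 6.01 in the hearts, and the platelet list to 141 and 107 CPM against 48.6, 42.4 and 53.5. Against the direction of the platelet sums, 3 of 5 tested platelet genes were called higher in the hearts, 1 of them heart-rich. The other 2 were called higher in the macrophages by under 4-fold, and the platelet median was -1.07. Of 15 T and NK cell genes only 3 were tested, and none was macrophage-rich or heart-rich. Of 10 B cell genes 6 had a mean under 1 CPM in the macrophages and 8 in the hearts. Only 4 were tested and 3 were macrophage-rich (10.3% of all tested genes were). Among these was Cd22, an inhibitory receptor, at 27.8 and 33.5 CPM in the macrophages and 0.481, 0.229 and 1.94 in the hearts (log2 5.04, and 6.41 without heart 3). Ighm, the IgM heavy chain, was at 8.39 and 48.9 CPM against 12.9, 11.1 and 17.3 and not called, but it was called higher in the macrophages without macrophage library 1 (log2 1.82) and higher in the hearts without library 2 (log2 -0.72). Of 10 tested granulocyte and mast cell genes, 6 were heart-rich and 2 macrophage-rich, with a median of -3.14, and the list summed to 59.3 and 110.2 CPM in the macrophages and 28.5, 22.98 and 28.2 in the hearts. Against that direction, Csf3r, the receptor of granulocyte growth factor, which macrophages also express, was macrophage-rich at 51.9 and 103 CPM against 6.13, 5.26 and 6.22.

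The highest CPM among genes at a like level was that of Lpl, given above. After Lpl stood Eef2, an elongation factor, at 2113 and 1679 CPM in the macrophages and 1785, 1673 and 2131 in the hearts, and Tpt1, a growth-linked calcium-binding protein, at 1612 and 1389 CPM against 1793, 1694 and 1817. Sparc and Pkm followed, with the values above. The chaperones Hsp90ab1, at 1111 and 1112 CPM against 1563, 1661 and 1628, and Hspa5, of the endoplasmic reticulum, at 979 and 966 CPM in the macrophages and 1150.3, 1133 and 946 in the hearts, came with the translation factor Eif4g2, the kinase Wnk1 and the integrin chain Itgb1 at 1113 and 942 CPM against 1080.3, 937 and 975. A like level is a rule of range, and the calls of Lpl (higher in the hearts) and Eif4g2 were lost without hearts 1 or 2, that of Eif4g2 also without either macrophage library. Lpl, at a mean of 2467 CPM in the macrophages and 3726 CPM in the hearts, lay under Lyz2 in the former and under Actc1 in the latter. Of the 44 cytosolic ribosome genes, 32 lay at a like level, 31 were called and none reached 4-fold, and their median of -0.53 was 0.07 with mitochondrial genes left in, so that the side of this family depends on the scaling.

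Of 23 genes commonly used as references, 13 lay at a like level, beside 4030 of the 7890 genes averaging 10 CPM or more in both groups. Another 3 were macrophage-rich, a share near the 10.3% of all tested genes, and none was heart-rich. Actb, beta-actin, was at 4875 and 4753 CPM in the macrophages and 1197, 922 and 1193 in the hearts (log2 2.12, SE 0.18, adjusted p = 8.26e-07), and Gapdh differed in the opposite direction (log2 -1.95); that direction held under every scaling tried. All 25 actin cytoskeleton genes were called higher in the macrophages, 8 of them macrophage-rich and 20 with mitochondrial genes left in, with Lcp1, the leukocyte plastin, at 1749 and 2023 CPM against 184, 124 and 172.

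The second pair of groups, wild-type macrophages against IL-10 hearts, was used to see how far the classes returned in other libraries. There 11073 of 14252 genes were called (77.7%), 5237 higher in the macrophages (36.7%) and 5836 higher in the hearts (40.9%), and 1800 were macrophage-rich (12.6%) and 3042 heart-rich (21.3%). Of the 1496 genes macrophage-rich in the first pair, 1052 (70.3%) were so again and 4 were heart-rich. Of the 2521 heart-rich genes, 2171 (86.1%) were so again and 10 were macrophage-rich. Of the 4030 genes at a like level, 2719 (67.5%) were so again, among 3386 genes at a like level in the second pair. Genotype, IL-10 and the individual libraries differ together between the pairs and cannot be told apart.

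The lists kept or lost their side in different measure. In the second pair all 20 identity genes and all 18 Fc receptor and adaptor genes were macrophage-rich, all 24 tested sarcomere genes heart-rich and all 47 oxidative phosphorylation genes heart-rich. Chemokines had a median of 3.48 with 15 of 25 macrophage-rich, against -0.08 and 5 of 24 in the first pair. Resident-macrophage receptors had 4 macrophage-rich members against 9. These differences between the pairs were not tested. Il1b was at 379 and 826 CPM in the wild-type macrophages and 2.14, 2.56 and 5.44 in the IL-10 hearts, the opposite order to that given above. Cxcl10 was at 140 and 329 CPM against 1.72, 1.67 and 3.06, also the opposite order.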

How the data were processed

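Poly(A) RNA of 2 cultured macrophage libraries and 3 heart libraries was compared. The deposited counts are whole reads per gene: the authors aligned with HISAT2 (2.2.1) and counted with featureCounts (version not given in the sources used here), per the submitters' processing notes. Per the labels' protocols the kit was NEBNext Ultra RNA, which does not mark strand, so overlapping and antisense genes cannot be told apart, and the text names livers as the source of RNA although the samples are hearts and macrophages. The labels list both GRCm39 and mm10. GENCODE gave names for 52081 of the 55357 identifiers, and every column of counts belonged to a sample.

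The heart and macrophage tables were joined here on raw counts, with mitochondrially encoded genes left out of library sizes and tests and no further scaling factor. Genes were kept by filterByExpr (minimum count 10, minimum total 15), and macrophages were compared with hearts by edgeR's quasi-likelihood test (edgeR 4.0.16, R 4.3.3), Benjamini-Hochberg adjusted over all 14554 genes. SE is the absolute log2 difference divided by the square root of F. A call needed an adjusted p under 0.05. CPM are deposited counts per M counts without mitochondrial genes; levels between genes used CPM per exon length, summed to 1 M. Bounds use 3 counts over a group, which is 0.0861 CPM in the macrophages and 0.112 CPM in the hearts, and counting intervals are exact (Clopper-Pearson, 95%), covering counting error only.

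The members and the 49 gene lists were chosen with earlier results of these data known. Genes named are the 4 highest members of each list and up to 4 that were at least 4-fold higher on the other side, the 10 highest levels per group, the 12 largest differences per direction at 100 CPM or more, the 10 highest genes at a like level, 31 pairs and 10 fixed genes. Some genes that the rule picks are not reported here. Results of other genes are said to be chosen after their values were seen. Promoters are from RefSeq (GRCm38.p6, 250 bases before the start); 10 motifs were searched on both strands (the PU.1 core GAGGAA, the E-box CACGTG, the M-CAT element CATTCC, the GATA site AGATAA, the ERR site AAGGTCA, the TATA box TATAAA, the CAAT box CCAAT, and by name the NRF1, MEF2 and CArG elements), and lists with under 80% of genes matched, most macrophage lists among them, were not used. The test was checked on simulated data for this comparison with 14554 genes: of 100 changes at 2-fold it found 86 and of 100 at 8-fold all 100, and 8 unchanged genes were called. Only these few genes were changed, in random directions and none of them with low counts, whereas most genes differ in the real data. The check therefore says nothing of the choice of scaling or of genes with few counts. Alternatives were other scalings, no filter, a filter of 1 CPM, mitochondrial genes left in, DESeq2 (1.42.0), limma-voom (limma 3.58.1), the replicate number as a block, other fold limits and leaving out each library; where 1 macrophage library is left, it is assumed to vary like the hearts.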

Additional observations from a re-analysis of the deposited data

Results flagged for a closer look

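In 11 genes the libraries of the first pair of groups (Cd163-/- macrophages and saline hearts) lay wholly in one order and those of the second pair (wild-type macrophages and IL-10 hearts) wholly in the opposite one. The difference between the pairs was not tested. The genes were taken from the 14 that changed class between the pairs, and those named only here were chosen after their values were seen. Cx3cr1, the fractalkine receptor, had a log2 difference of 2.2 in the first pair, at 100.1 and 56.2 CPM against 17.7, 13.4 and 19.8, and of -2.79 in the second, at 1.84 and 0.49 CPM against 7.61, 7.01 and 9.98. Slc40a1, the iron exporter ferroportin, had 2.17, at 98.3 and 74.5 CPM against 18.5, 17.6 and 21.2, and then -2.52, at 6.45 and 1.04 CPM against 21.1, 23.0 and 20.9. Angptl7 moved from 3.52 to -4.81 and Actg2, a smooth muscle actin, from 2.44 to -2.05. In the opposite sense, Il1b went from -3.11 to 7.48 and Cxcl10 from -3.21 to 6.77. Ly6c2 went from -3.11 to 2.78 and the adenosine receptor gene Adora2a from -2.64 to 3.18. Serpina3f stood at -2.27 and 3.72, BC023105 at -2.42 and 3.17, and Htra4 at -2.08 and 2.21. Of the other 3 genes that changed class, Cxcl9, Gbp4 and Iigp1, the libraries of at least 1 pair overlapped.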

How the results depend on the processing

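Against 1496 macrophage-rich, 2521 heart-rich and 4030 like-level genes, mitochondrial genes left in gave 2447 macrophage-rich, 1980 heart-rich and 2764 like-level genes. At least 2-fold gave 3339 and 3956, at least 8-fold 796 and 1711, and a range up to 1.5 gave 2023 like-level genes. Leaving out 1 library gave 1524 to 1623 macrophage-rich, 2473 to 2741 heart-rich and 4112 to 4527 like-level genes, and 1827 to 1988 and 3028 to 3245 in the second pair. TMM and DESeq2 size factors kept these counts within 1.5 times, as did DESeq2, limma-voom, no filter and the 1 CPM filter for the macrophage-rich and heart-rich counts of the first pair. Nothing in the labels says that replicate numbers pair a culture with a heart. The difference of replicate 1 from replicate 2 had a correlation of 0.02 between macrophages and hearts over 11577 genes. A value near 0 cannot exclude a pairing, because a shared origin need not shift the same genes in a culture and a tissue. With the number as a block 10248 genes were called, 1554 macrophage-rich and 2520 heart-rich. Some genes changed sign: with mitochondrial genes left in, Lpl was at 0.014, Hsp90ab1 at 0.066, Eif4g2 at 0.20, Col3a1 at 0.35, Cox6a1 and Tpt1 at 0.37, Rpl3 at 0.45, Hspa5 at 0.46, Cxcl12 at 0.52 and Stat3 at 0.55. Eef2 was at -0.012 under TMM, -0.039 under DESeq2 size factors and -0.13 under upper-quartile factors, Itgb1 at -0.018 and -0.11 under the last 2, and Pkm at -0.072 under the last. Leaving out 1 library gave values for Col3a1 from -0.88 to 0.17, Cxcl12 from -0.26 to 0.062, Eef2 from -0.15 to 0.18, Itgb1 from -0.083 to 0.16, Sparc from -0.13 to 0.69 and Ighm from -0.72 to 1.82. The cause was not tested. With 2 macrophage libraries and 8.32 M counts in the shallowest heart, genes of a few counts have wide intervals.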

Other observations

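Cholesterol synthesis genes lay on the macrophage side. Of 22 genes, 21 were called higher in the macrophages and 13 were macrophage-rich (37.4% and 10.3% of all tested genes). Their median log2 difference was 2.44 against 0.02 over all tested genes. In the second pair of groups 15 were macrophage-rich (12.6% of all genes tested there were). Msmo1, a sterol methyl oxidase, was at 205 and 189.8 CPM in the macrophages and 22.96, 20.7 and 25.99 in the hearts (log2 3.08, SE 0.13, adjusted p = 2.50e-09). Insig1, which retains the sterol sensor in the endoplasmic reticulum, was at 167 and 173 CPM against 23.8, 22.9 and 28.6, and Srebf2, the transcription factor of the pathway, at 208 and 216 CPM against 44.002, 41.3 and 50.04. The groups did not overlap for any of these 3 genes, as was so for 82.9% of all tested genes.

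Cell cycle genes were higher in the macrophages by under 4-fold for the most part. Of 30, 29 were called higher there but 2 were macrophage-rich (37.4% and 10.3% of all tested genes), with a median of 1.12. Mki67, the proliferation antigen, was at 98.5 and 69.4 CPM in the macrophages and 17.8, 13.9 and 19.3 in the hearts (log2 2.30, SE 0.18), and Top2a, the topoisomerase of dividing cells, at 91.2 and 44.9 CPM against 36.2, 26.5 and 28.5 (log2 1.16, and 0.56 without macrophage library 1). The list summed to 1106 and 757 CPM in the macrophages and 448, 334 and 383 in the hearts, and none of the 30 genes was higher in macrophage library 2 than in library 1. In the second pair 21 were macrophage-rich (12.6% of all genes tested there were), with a median of 2.42. CCAAT stood in the 250 bases before the start of 22 of 27 matched genes (81.5%), against 34.3% of all promoters.

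Interferon-response genes had no single side. Of 27, 7 were called higher in the macrophages, 13 higher in the hearts and 7 not called. Over all 14554 tested genes, 37.4% were called higher in the macrophages, 36.5% higher in the hearts and 3802 were not called. The 4 heart-rich members were a share near the 17.3% of all tested genes. The list's median of -0.73 was -0.12 with mitochondrial genes left in. Ifi27l2a, an interferon-induced gene, was heart-rich at 18.3 and 2.93 CPM against 61.8, 54.9 and 56.4, with a log2 difference of -2.43 that was -4.29 without macrophage library 1 and -1.65 without library 2, and Bst2, the virus-tethering protein tetherin, was higher in the macrophages at 72.9 and 48.6 CPM against 20.4, 22.98 and 24.4. The heart-rich count of 4 was 7 without macrophage library 1 and 0 without library 2. In the second pair 20 of 27 were macrophage-rich (12.6% of all genes tested there were), with a median of 2.41. The difference between the pairs was not tested.

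Of 18 tested peritoneal macrophage genes, 9 were macrophage-rich and 5 heart-rich (10.3% and 17.3% of all tested genes). Arg1, arginase, was at 201 and 206 CPM in the macrophages and 13.2, 1.14 and 3.36 in the hearts (log2 5.14, and 6.46 without heart 1). Prg4, lubricin, was at 2.87 and 2.69 CPM against 118, 50.5 and 40.8 (log2 -4.64, and -4.03 without heart 1) and Icam2, an adhesion molecule also of endothelium, at 2.59 and 1.86 CPM against 37.1, 37.3 and 27.2.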
